A study of Mus musculus with 8 samples.

Results

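Iron-sulfur clusters are small inorganic cofactors of iron and sulfide that proteins of the respiratory chain, of DNA replication and repair and of iron sensing carry. The 9 genes described here encode factors that build and deliver them inside mitochondria: Nfs1, Iscu, Hscb, Glrx5, Isca1, Isca2, Nfu1, Bola1 and Bola3. They were listed by name and chosen by their measured values on these same arrays, where Hscb had been seen higher and Bola1 lower in mutant than in WT embryos, with somite number as the other variable. The differences of the members between genotypes and along somite number are therefore given as a description, with no test. All 9 had a probe, out of 19938 genes with at least 1 probe of a single gene symbol, and no filter on low values was applied.

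The cells were migrating primordial germ cells (PGCs), the precursors of eggs and sperm, of embryonic day 9.5. The 4 WT embryos carried Ror2+/+ and the 4 mutant embryos Ror2Y324C/Y324C, a substitution in the Wnt5a receptor Ror2. All came from intercrosses of Ror2Y324C/+ parents on a mixed strain background, with an Oct4-ΔPE reporter from the sire, whose GFP was used to sort PGCs from the trypsin-digested posterior of a single embryo. The allele was inherited, so the tissue around the PGCs carried it as well. WT 1 and WT 2 had 25 somites, WT 3 had 22 and WT 4 had 21, while mutant 1 had 24, mutant 2 had 22 to 23, mutant 3 had 23 and mutant 4 had 21 to 22. Each embryo gave 1 array, and the labels number the arrays as biological replicates.

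In the mitochondrial matrix, the cysteine desulfurase Nfs1 supplies sulfur and the scaffold Iscu holds the new cluster. The cochaperone Hscb brings loaded Iscu to the chaperone Hspa9, which passes the cluster to the monothiol glutaredoxin Glrx5. Isca1 and Isca2 act further along in making the larger clusters, and Nfu1, Bola1 and Bola3 take part in late delivery, with Nfu1 and Bola3 known from inherited disorders in which lipoic acid synthesis fails. PGCs divide and migrate at this stage, and both respiration and DNA replication depend on proteins with these clusters.

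Sorted identity was checked first. The mean of 10 PGC markers ran from 9.56 to 9.90 in WT and from 9.74 to 9.88 in mutants on the log2 scale, and Pou5f1 (Oct4) lay between 10.91 and 11.37 on every array. Primitive erythroid markers (7 of 8 measured) ran from 4.80 to 5.46 in WT and from 4.78 to 5.02 in mutants, with 0 of 7 above 0 for mutant minus WT. Macrophage markers (8 of 8 measured) ran from 4.71 to 5.25 and from 4.69 to 4.89, with 1 of 8 above 0. Trunk mesenchyme markers ran from 4.79 to 5.30 and from 4.91 to 5.23, hindgut endoderm markers from 5.99 to 6.65 and from 6.07 to 6.45, and endothelial markers from 5.36 to 5.55 and from 5.43 to 5.57. These are list means, and single markers stood higher over the 8 arrays. Hindgut Krt18 ran from 6.56 to 9.47, Krt8 from 6.50 to 7.87 and Cdx2 from 7.83 to 8.30, while Sox17, Foxa1, Foxa2, Shh and Cldn4 had means from 5.11 to 5.79. Endothelial Pecam1 ran from 8.12 to 9.33, and the others of its list had means from 4.22 to 5.44. Above 0 for mutant minus WT were 7 of 10 PGC, 4 of 8 mesenchyme, 3 of 8 hindgut and 4 of 7 endothelial markers. Of all genes 44.6% were above 0, and 57.4% of those above the level of the median gene (5.61). The erythroid and macrophage means lay below that level on every array. WT 3 was the highest array for erythroid, macrophage and mesenchymal markers and the lowest for PGC markers (9.56), and it had the narrowest spread of log2 values over genes (SD 1.77, against 1.82 to 1.95 elsewhere). WT 4 (1.82) and mutant 4 (1.83), the youngest of their groups, came next. Within each group hindgut markers were highest in these youngest embryos (6.65 and 6.45) and lowest in WT 1 (5.99) and mutant 1 (6.07). In WT the hindgut mean was 5.99 and 6.24 at 25 somites, 6.31 at 22 and 6.65 at 21. Mutants 1 to 3, of 22 to 24 somites, all lay from 6.07 to 6.09, so only mutant 4 stood higher. Spread did not follow the order of somite number, since WT 3 was narrower than the younger WT 4. How far hindgut signal and spread entered the slopes below was not tested. The part of other cells in the values below was not tested, and in such sorted bulk samples fewer cells of a type and less RNA per cell cannot be told apart. Ror2 itself lay between 7.38 and 7.83 in WT and between 7.50 and 8.29 in mutants. Its allele is a substitution, so this level does not check the genotype labels.

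Upstream sequence was at hand for 7 of the 9 members in RefSeq (GRCm38.p6), and the 250 bases before the annotated start are shown for Bola1, the member that was lower in every mutant embryo, and for Isca1, the member that lies within 10 Mb of Ror2 on chromosome 13. The first reads chr3:96197587-96197836 and the second chr13:59769790-59770039, both on the minus strand and written 5′ to 3′ along the gene. Capitals mark matches, on either strand, to the letters AAGATGG of a YY1 site, CCGGAAG of an ETS site, GGGCGG of an SP1 site, or GCGCA and GCGC with any base between them for an NRF1 site.
Bola1: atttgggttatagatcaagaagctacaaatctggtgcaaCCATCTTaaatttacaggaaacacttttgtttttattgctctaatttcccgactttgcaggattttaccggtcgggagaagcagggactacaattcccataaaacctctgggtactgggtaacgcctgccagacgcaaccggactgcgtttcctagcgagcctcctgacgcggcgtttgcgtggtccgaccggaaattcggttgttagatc
Isca1: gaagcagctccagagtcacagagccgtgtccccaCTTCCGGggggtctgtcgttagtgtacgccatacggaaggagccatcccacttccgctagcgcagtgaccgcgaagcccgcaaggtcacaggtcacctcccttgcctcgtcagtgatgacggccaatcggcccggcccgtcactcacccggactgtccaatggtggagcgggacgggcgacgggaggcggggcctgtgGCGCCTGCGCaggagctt
The Bola1 stretch held 1 match, to the YY1 letters, and the Isca1 stretch held 1 ETS match and 1 NRF1 match. Among the 7 members with sequence, ETS letters were found in 3 (Nfs1, Isca1, Isca2), SP1 letters in 3 (Bola3, Isca2, Nfu1), NRF1 letters in 1 and YY1 letters in 1. Over 15614 measured genes with such a stretch the shares were 9.63%, 46.0%, 5.84% and 4.19% in that order, and the 4 motifs do not share letters with each other in the stretches shown. The Bola1 stretch was 47.6% G or C and that of Isca1 66.4%, against a median of 56.4% over those genes. The members lie on chromosomes 2, 3, 5, 6, 12 and 13, and no member other than Isca1 is on the chromosome of Ror2.

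Hscb had the clearest separation of the genotypes. Its log2 values were 6.31, 5.82, 5.97 and 6.18 in WT 1 to 4 and 6.64, 6.95, 6.82 and 6.73 in mutant 1 to 4. Every mutant value lay above every WT value, with 0.33 between the lowest mutant and the highest WT. The means were 6.07 ± 0.22 in WT and 6.79 ± 0.13 in mutants (SD, n = 4 each), a difference of 0.72 ± 0.15 (SE from limma) or 1.64-fold. Leaving out any 1 array gave differences from 0.63 to 0.80, with 0.68 without WT 3. Hscb acts where the cluster leaves its scaffold, and the array held 1 probe for it.

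Bola1 was ordered the other way. It stood at 8.29, 7.87, 8.26 and 8.01 in WT 1 to 4 and at 7.59, 7.26, 7.42 and 7.73 in mutant 1 to 4. The lowest WT value exceeded the highest mutant value by 0.14. The means were 8.11 ± 0.20 and 7.50 ± 0.21 (SD, n = 4 each), a difference of -0.60 ± 0.15 (SE), so that the WT level was 1.52-fold that of the mutants. Differences ran from -0.68 to -0.52 when any 1 array was left out, with -0.55 without WT 3. Hscb and Bola1 were the 2 members without overlap between the groups. Of all genes tested, 1.08% were wholly higher and 1.44% wholly lower in mutants, and since the pair was chosen for this contrast nothing is read from the count.

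**Figure D1:**
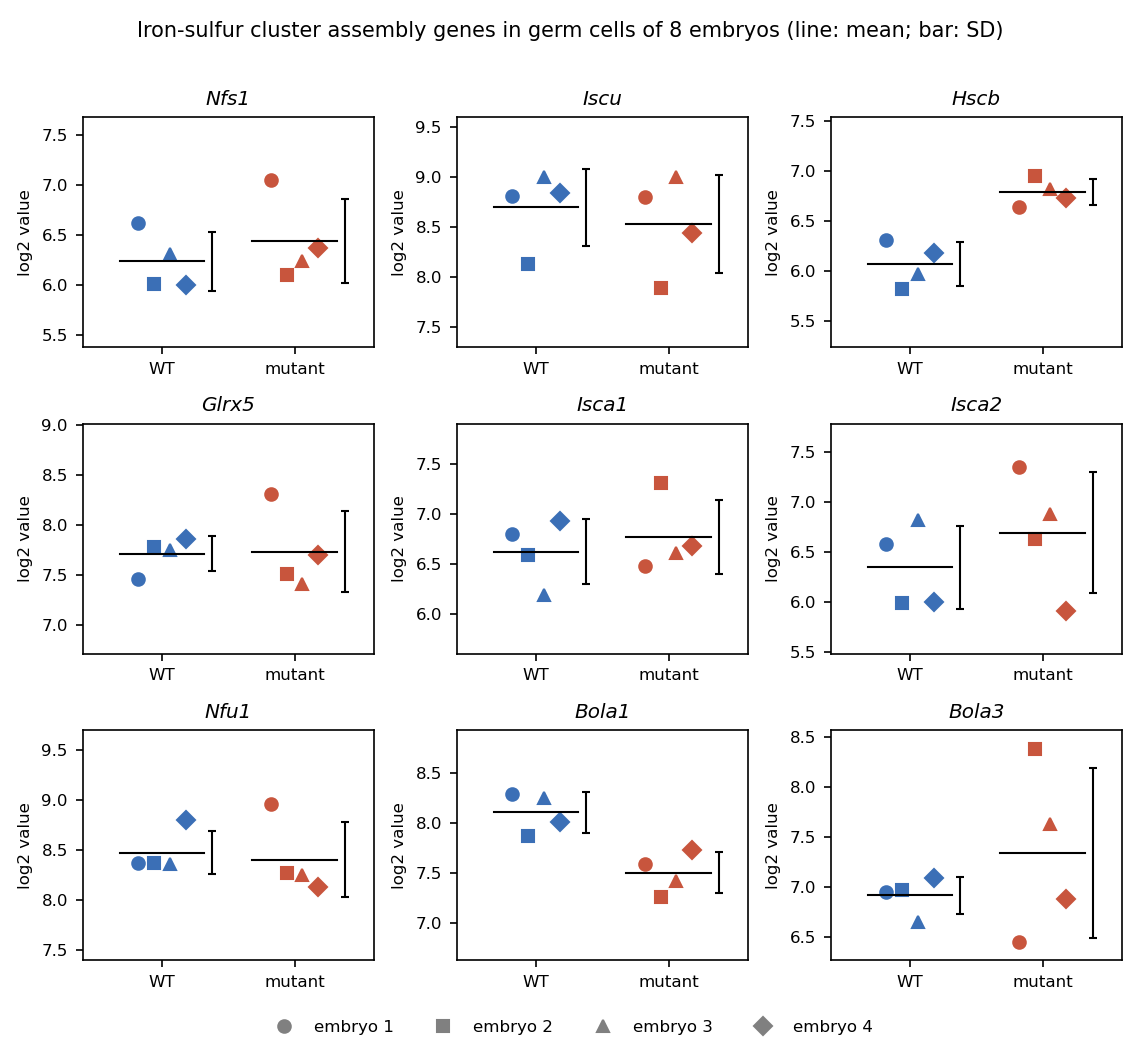
Log2 values of the 9 genes (vertical axes, each spanning the same range of log2 units) in WT (blue) and mutant (red) embryos, with 1 symbol per embryo, the group mean as a line and the SD as a bar, n = 4 each. Hscb and Bola1 show no overlap of the groups, while the other 7 genes overlap.

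Bola3, a paralogue of Bola1, did not follow it. Its WT values were 6.96, 6.97, 6.65 and 7.10, and its mutant values 6.45, 8.39, 7.63 and 6.89. The mutant group held both the lowest and the highest embryo, mutant 1 and mutant 2. The difference was 0.42 ± 0.35 (SE), and it fell to 0.07 without mutant 2 and rose to 0.72 without mutant 1. Bola1 was at its lowest in mutant 2 (7.26), where Bola3 was at its highest.

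The genes at the start of the route showed no such separation. Nfs1 read 6.62, 6.01, 6.31 and 6.0 in WT and 7.05, 6.10, 6.24 and 6.36 in mutants, so that mutant 1 was its highest array. The mutant mean was 0.20 higher (95% interval -0.29 to 0.70), and without mutant 1 the difference was within 0.01 of 0. Iscu, represented by the probe of highest mean, read 8.81, 8.13, 9.01 and 8.84 in WT and 8.80, 7.89, 9.0 and 8.44 in mutants, a difference of -0.17 ± 0.26 (SE). WT 2 and mutant 2 were the low embryos of their groups, and the groups overlapped over most of their range.

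The Iscu reading depended on the probe. Probes close in number mostly name genes of the same chromosome: for each of the 6 members with 1 probe, at least 8 of the 10 nearest named probes lie on its own. The 10 nearest to the Iscu probe of highest mean all name genes of chromosome 19, whereas Iscu lies on chromosome 5. The second Iscu probe sits among probes of chromosome 5 (9 of 10). It read 7.99, 6.78, 7.39 and 8.42 in WT and 8.44, 7.21, 8.55 and 7.25 in mutants. With it the difference was 0.22 rather than -0.17, a change of sign within the spread of either group. The value of Iscu is therefore uncertain, and which transcript each probe reads was not tested. This comparison of probes was added after seeing the data. Nfu1 also had a second probe, among probes of chromosome 15 (10 of 10), but its main probe sits on its own chromosome 6. Both Isca1 probes sit on chromosome 13, with differences of 0.14 and 0.13.

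**Figure D2:**
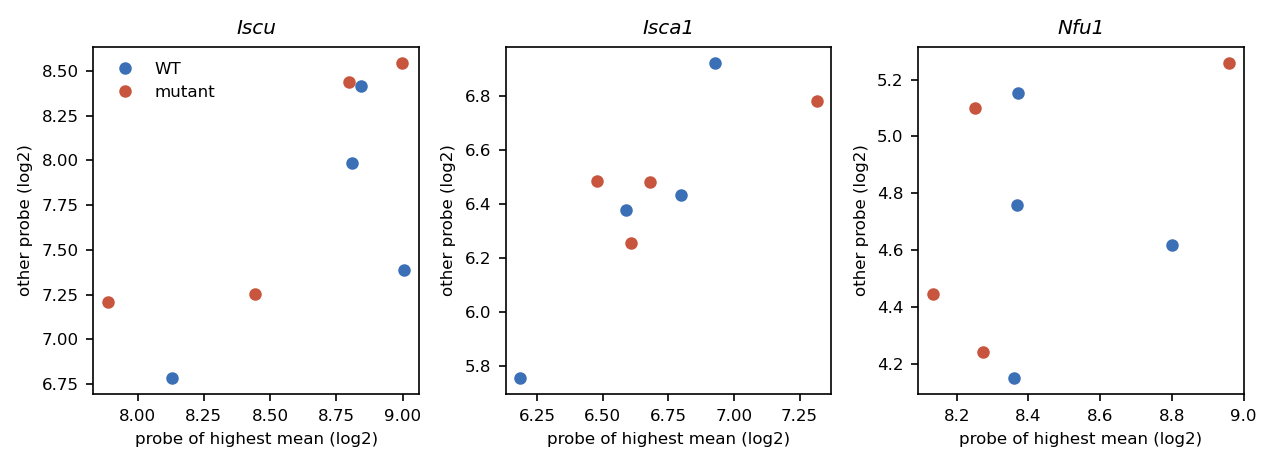
Log2 values of the probe of highest mean (horizontal axis) against the other probe (vertical axis) for Iscu, Isca1 and Nfu1, with 1 point per embryo, WT blue and mutant red. For Iscu, WT 2 (8.13 and 6.78) and mutant 2 (7.89 and 7.21) are low on both probes, while WT 3 is the highest on the first (9.01) and among the low ones on the other (7.39). Both probes lie on the same side of their means in 7 of 8 arrays for Iscu, 5 for Isca1 and 4 for Nfu1, whose probes order the embryos differently. The mean absolute difference between the centred values of the probes was 0.39 for Iscu, 0.16 for Isca1 and 0.31 for Nfu1.

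Glrx5, Isca1 and Isca2 carry the cluster onward. Glrx5 ran from 7.46 to 7.86 in WT and from 7.41 to 8.31 in mutants, a difference of 0.02 ± 0.20 (SE). Isca1 ran from 6.19 to 6.93 and from 6.48 to 7.31, a difference of 0.14 ± 0.22. Isca2 read 6.58, 6.0, 6.82 and 6.0 in WT and 7.35, 6.63, 6.89 and 5.91 in mutants, a difference of 0.35 ± 0.30. It was 0.13 without mutant 1, 0.61 without mutant 4 and 0.77 without WT 3 and mutant 4 together. Groups overlapped for all 3 genes, and mutant 4 was below every WT value of Isca2.

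Nfu1, which hands clusters to lipoic acid synthase, read 8.37, 8.37, 8.36 and 8.80 in WT and 8.96, 8.27, 8.25 and 8.13 in mutants. Its difference was -0.07 ± 0.20 (SE), and the 95% interval ran from -0.51 to 0.37. WT 4 and mutant 1 stood apart from the 3 other embryos of their groups.

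Of the 9 members, 6 lay above 0 for mutant minus WT and 3 below, with a median of 0.14, where 44.6% of all genes lay above 0 with a median of -0.02, and 57.4% of genes with a mean above that of the median gene. The count above 0 was 5 after quantile normalization, 6 after median centring, 8 with the mean of all probes of a gene and from 4 to 7 when any 1 array was left out. The arrays differed in which members they held at the extreme. Mutant 1 was the highest of all 8 arrays for Nfs1, Glrx5, Isca2 and Nfu1, which is 4 of 9 members, where 8.88% of all genes peaked in that array. Mutant 2 was the highest for Hscb, Bola3 and Isca1, where 8.93% of all genes peaked. Hscb was chosen as higher in mutants, so its peak in a mutant array largely follows from that choice. Nothing is read from these counts of peaks. Within groups, Hscb and Bola1 had small spreads (pooled SD 0.18 and 0.20, against a median of 0.24 over all genes), and the other 7 members had larger spreads than this median, up to 0.62 for Bola3. The separation for which Hscb and Bola1 were chosen favours small spreads.

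**Figure D3:**
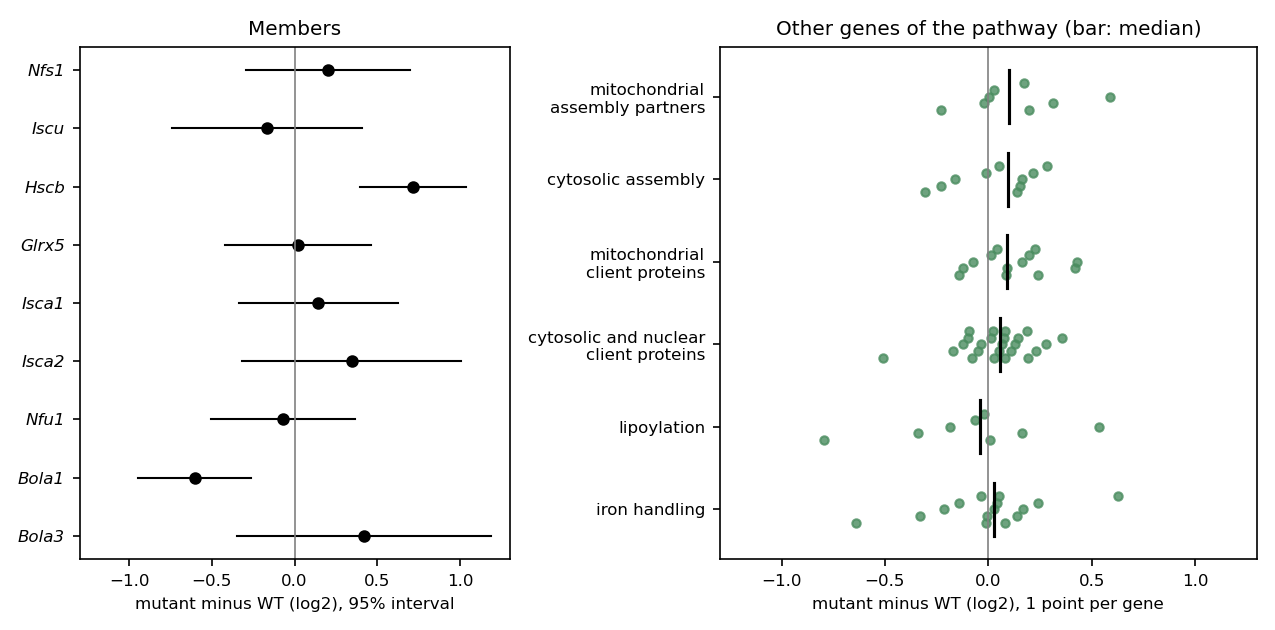
Left, mutant minus WT on the log2 scale for the 9 members with 95% intervals from limma (n = 4 embryos each). Right, the same difference for 78 other genes of cluster assembly, client proteins, lipoylation and iron handling, with 1 point per gene and the median of each list as a bar; the medians lie between -0.04 and 0.10.

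Genes next to Hscb and Bola1 on the chromosome were named by position. The annotated span of Chek2, a checkpoint kinase of the DNA damage response, begins 6 bases past that of Hscb. Chek2 read 7.90, 7.83, 7.39 and 7.31 in WT and 8.16, 8.19, 8.82 and 8.22 in mutants. As for Hscb, every mutant value lay above every WT value. Its difference was 0.74 ± 0.20 (SE; 95% interval 0.30 to 1.18), or 1.67-fold, with an unadjusted limma p of 0.00364 and an adjusted p of 0.973, so it did not pass over all genes, of which 0% passed. Without mutant 3, its highest embryo, the difference was 0.58, and without WT 3 it was 0.67. Ulk1, an autophagy kinase on the other side of Hscb, ran from 7.52 to 8.09 in WT and from 7.80 to 8.08 in mutants, with a difference of 0.20 ± 0.15. Sv2a, a synaptic vesicle protein beside Bola1, differed by -0.03 ± 0.26, and H2bc21, a histone gene on its other side, by 0.70 ± 0.42, with overlapping groups in each.

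**Figure D4:**
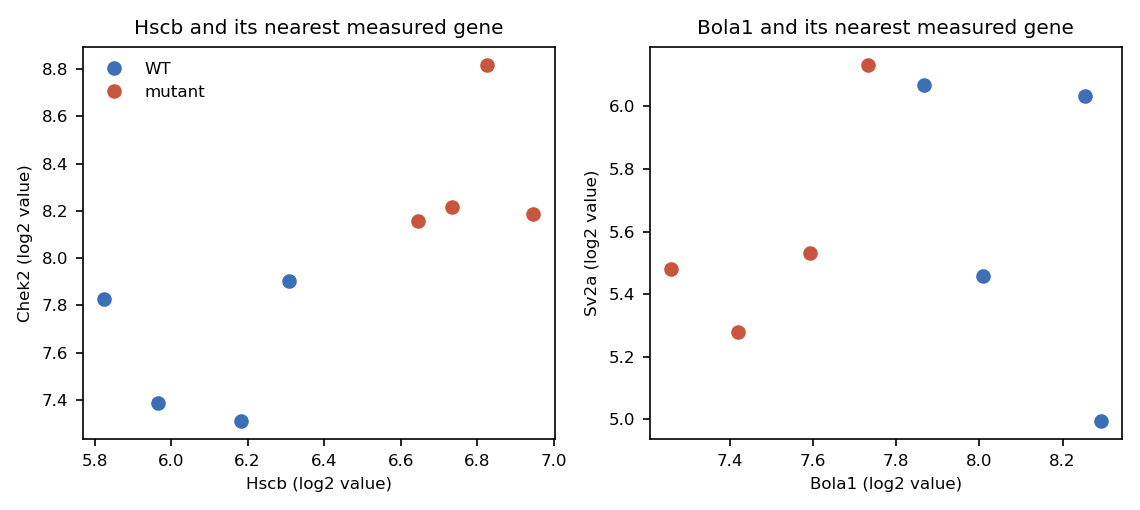
Log2 values of Hscb against Chek2 and of Bola1 against Sv2a, with 1 point per embryo, WT blue and mutant red. In the left panel the mutants lie above 6.6 for Hscb and above 8.1 for Chek2 and the WT embryos below both; in the right panel the groups separate for Bola1 and overlap for Sv2a.

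The genes whose pattern over the 8 arrays was most like that of Hscb were sought among 9968 genes of above-median mean, by the root mean square difference of values centred on each gene's own mean. They were Cir1 (0.14), a transcriptional corepressor, Etfa (0.16), a subunit of the electron transfer flavoprotein, Map1lc3a (0.16), an autophagosome protein, Pmf1 (0.16), a kinetochore protein, and Mpp5 (0.17), a polarity protein. For Bola1 they were Mrps10 (0.16), of the mitochondrial ribosome, Syngr2 (0.16), a synaptogyrin, Akap8l (0.18), Fan1 (0.18), a DNA repair nuclease, and Pnpla3 (0.18), a lipid hydrolase. On the same measure the member nearest to Hscb was Isca1 (0.36), while Hscb and Bola1 were 0.70 apart. The genotype contrast for which Hscb and Bola1 were chosen is part of these patterns.

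Somite number stages the embryo, and the slopes of most members lay within their SE of 0. With genotype in the limma model, the slope of Hscb was -0.02 ± 0.05 log2 units per somite (SE) and that of Bola1 -0.01 ± 0.06. The slope of Isca2 was 0.12 ± 0.10, from 0.04 without mutant 4 to 0.22 without WT 2, and -0.22 with the replicate number as a block. That of Nfs1 was 0.10 ± 0.08, from 0.04 without mutant 1 to 0.18 without WT 2, and -0.02 with the block. Of the slopes, 4 of 9 were above 0, where 40.5% of all genes were and 58.6% of genes with a mean above that of the median gene. That count was 2 after quantile normalization and 7 after median centring, so the balance of directions depended on the scaling. Hscb and Bola1 differed between genotypes by 0.71 and -0.61 with somite number as a covariate, much as without it.

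Whether the slope differed between genotypes was tested with an interaction term over all genes. The choice of members named genotype and somite number on these same arrays, so member values of this term are not independent of that choice. Of all genes, 0% passed after adjustment and 4.52% had an unadjusted p under 0.05 (2.14% with a positive and 2.38% with a negative difference of slopes). Of the members, 0 passed and 2 had such a p, Isca2 and Nfu1, both with a positive difference. Nothing is read from this count. In mutants Isca2 read 5.91 at 21 to 22 somites, 6.63 at 22 to 23, 6.89 at 23 and 7.35 at 24, so the embryos stand in the order of their somite number. In WT it read 6.0 at 21 somites, 6.82 at 22, and 6.58 and 6.0 at 25, with no such order. The slopes differed by 0.58 ± 0.19 per somite (limma, SE, unadjusted p 0.0139, adjusted p 0.989), from 0.48 to 0.75 when any 1 array was left out. This difference was 0.41 without WT 3 and mutant 4 together and 0.23 with the replicate number as a block. It was 0.46 with the lower and 0.72 with the upper end of the somite ranges. The slopes of Nfu1 differed by 0.39 ± 0.14 (limma unadjusted p 0.0192, adjusted p 0.999), and by 0.16 without mutant 1, the mutant of most somites. Neither passed.

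**Figure D5:**
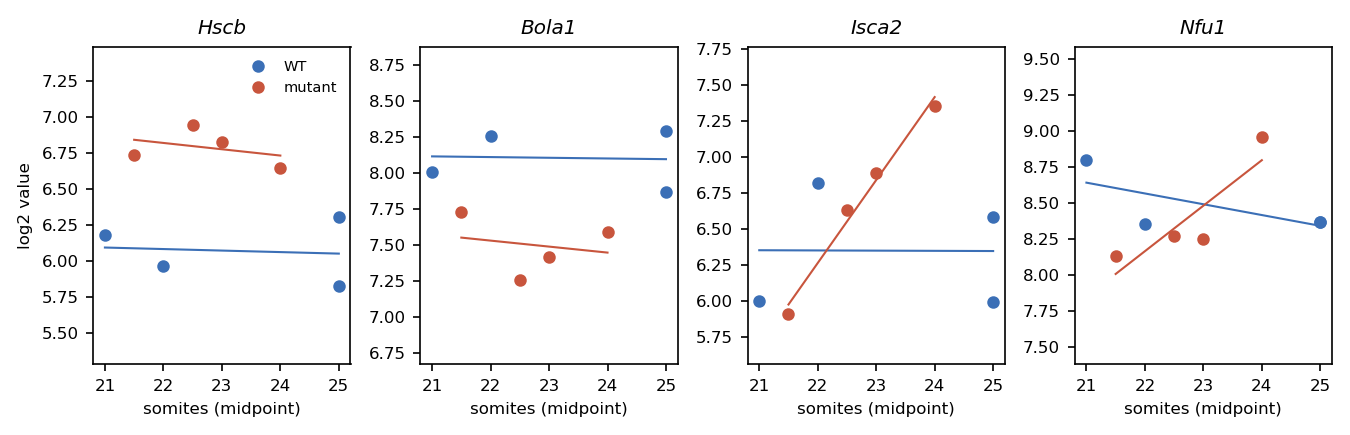
Log2 values of Hscb, Bola1, Isca2 and Nfu1 against somite number (midpoint where a range was given), with 1 point per embryo, WT blue and mutant red, and a least squares line for each genotype. Hscb and Bola1 keep the genotypes apart along the axis, while the Isca2 line rises in mutants and is flat in WT.

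The other genes of the route were taken from 6 lists of 86 genes, of which 78 had a probe. None of the 78 passed the limma test for mutant minus WT over all genes (0 after adjustment). At an unadjusted p under 0.05, 5 of the 78 were called (2 higher, 3 lower), where 4.68% of all genes were (2.72% higher, 1.96% lower), and 49 of 78 lay above 0, where 44.6% of all genes did. Of the 78, 69 had a mean above the median gene. Of these 66.7% lay above 0, and of all genes with such a mean 57.4% did, the unadjusted calls among them being 404 higher and 134 lower. For somite number 0 passed, and 8 slopes were positive and 1 negative at an unadjusted p under 0.05, where 5.02% and 4.72% of all genes were. Among the 9969 genes of above-median mean, 800 slopes were positive and 246 negative at that p. Of these 9969 genes 58.6% had a slope above 0, and of the 69 list genes 78.3% did. Genes of this level thus also leaned to positive slopes, though less than the list genes, and the cause was not tested. Over all genes the split of 1000 positive and 942 negative slopes became 1419 and 491 after median centring, and that of 543 higher and 391 lower genes became 796 and 230.

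Partners in the matrix included the proteins that bind Nfs1 itself. Their median was 0.10, 6 of the 8 measured being above 0. Ndufab1, the acyl carrier protein that sits in the Nfs1 complex, read 9.35, 9.01, 8.75 and 8.81 in WT and 9.78, 9.80, 9.31 and 9.38 in mutants. Its difference was 0.59 ± 0.18 (SE; limma unadjusted p 0.00778, adjusted p 0.973), and WT 1 at 9.35 lay above mutant 3 at 9.31, so the groups overlapped. Lyrm4, which joins that protein to Nfs1, differed by 0.31 ± 0.18 and had a slope of 0.15 ± 0.04 per somite (limma unadjusted p 0.00758, adjusted p 0.428). Nubpl, a factor that inserts clusters into complex I, differed by -0.23 ± 0.16, and the cochaperone Grpel1 had a slope of -0.11 ± 0.05.

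The cytosolic assembly machinery, which serves nuclear and cytosolic proteins, had 0 of 10 measured genes at an unadjusted p under 0.05, a median of 0.10 and 6 above 0. Ciapin1, an electron carrier of this route, differed by 0.28 ± 0.17, Ciao3 by -0.23 ± 0.18 and Nubp2, a scaffold component, by -0.30 ± 0.27 (SE), which was -0.05 without mutant 4 and -0.53 without mutant 3. Ciao2b and Ciao2a, which target clusters to client proteins, had slopes of 0.10 ± 0.05 and 0.19 ± 0.12 per somite.

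Among proteins that carry clusters in mitochondria, 10 of 13 measured genes lay above 0, with a median of 0.09 and 0 at an unadjusted p under 0.05. Cdk5rap1, a tRNA-modifying enzyme, differed by 0.43 ± 0.24, Cisd1, an outer membrane cluster protein, by 0.42 ± 0.30, and Ndufs7, a complex I subunit, by 0.23 ± 0.18 (SE). Cisd1 had the smallest slope p of the list. It read 10.69 and 10.59 in WT 1 and WT 2, of 25 somites, 9.37 in WT 3 and 9.36 in WT 4, of 22 and 21, and from 10.32 to 10.54 in mutants, a slope of 0.29 ± 0.06 (limma unadjusted p 0.00103, adjusted p 0.312). The mutants, of 21 to 24 somites, all lay close to the older WT embryos. Fitted apart, the WT slope was 0.35 and the mutant slope 0.04, and they differed by -0.31 ± 0.12 (limma unadjusted p 0.0303, adjusted p 0.999). The slope of Ndufs7 was 0.14 ± 0.05.

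Of the cytosolic and nuclear client proteins, 16 of 24 measured genes lay above 0, with a median of 0.06. Nthl1, a DNA glycosylase of base excision repair, read 7.30, 7.73, 7.25 and 7.34 in WT and 6.86, 7.12, 6.98 and 6.63 in mutants. The groups did not overlap, and the difference was -0.51 ± 0.16 (SE; limma unadjusted p 0.00899, adjusted p 0.973). Kif4, a chromosome-associated kinesin, differed by 0.36 ± 0.23 and Pole, the catalytic subunit of a replicative DNA polymerase, by 0.19 ± 0.14. The primase subunit Prim2 and the translesion polymerase Rev3l had slopes of 0.31 ± 0.07 and 0.22 ± 0.08 per somite (limma adjusted p 0.374 and 0.472).

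Lipoylation, the modification that depends on Nfu1 and Bola3, had 3 of 8 genes above 0 and a median of -0.04, which was 0.02 after median centring. Dlat, a lipoylated subunit of pyruvate dehydrogenase, read 8.35, 8.07, 7.63 and 7.78 in WT and 8.43, 8.65, 8.43 and 8.47 in mutants. Every mutant was above every WT embryo, and the difference was 0.54 ± 0.17 (SE; limma unadjusted p 0.00929, adjusted p 0.973). Lipt1, a lipoyl transferase, read 7.38, 6.96, 6.30 and 6.72 in WT and 5.74, 5.92, 5.85 and 6.67 in mutants, with mutant 4 inside the WT range. It differed by -0.80 ± 0.26 (limma unadjusted p 0.0110, adjusted p 0.973). Its WT slope was 0.16 and its mutant slope -0.36, which differed by -0.53 ± 0.17 (limma unadjusted p 0.0120, adjusted p 0.989). Dbt, another lipoylated subunit, differed by -0.34 ± 0.19 and had a slope of 0.16 ± 0.05, and Lipt2 had a slope of 0.16 ± 0.06.

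Of 15 iron handling genes 8 lay above 0, and their median was 0.03, or -0.01 after quantile normalization. Slc39a14, a carrier of zinc and iron, read 7.77, 7.44, 7.54 and 7.54 in WT and 7.10, 6.66, 7.15 and 6.82 in mutants, with no overlap. Its difference was -0.64 ± 0.15 (SE; limma unadjusted p 0.00154, adjusted p 0.973). The ferritin light chain Ftl1 differed by 0.63 ± 0.31, and by 0.28 without WT 3, where it stood at 8.89 against 9.98 to 10.75 in the other WT embryos. Fbxl5, an iron sensor that degrades iron regulatory protein, differed by -0.33 ± 0.18. The importer Slc11a2 had a slope of 0.09 ± 0.05 per somite. The exporter Slc40a1 had a common slope of 0.17 ± 0.07, made of 0.09 in WT and 0.51 in mutants, which differed by 0.42 ± 0.13 (limma unadjusted p 0.0103, adjusted p 0.979).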

How the data were processed

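Arrays of sorted PGCs from 4 WT and 4 mutant embryos were compared. Per the labels, RNA was isolated on micro columns, amplified with NuGEN Ovation FFPE WTA and labelled with biotin through the Encore module. The deposited table holds 1 value for each of 35557 probes and array, taken as log2 from the range, since no unit is named. How the authors corrected background, normalized and summarised probes is not given in the sources used, so scale and centring are taken from the values, and no detection limit is set. Array medians ran from 5.37 to 5.58, and values were used as deposited. The number of arrays limits precision.

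Of the probes, 21789 had 1 gene symbol, 1621 several and 12147 were unnamed here. Each of 19938 genes was represented by its probe of highest mean (999 had several). Differences (mutant minus WT), slopes per somite with genotype as covariate and their interaction were fitted over all genes with limma 3.58.1 in R 4.3.3 (lmFit, eBayes; prior degrees of freedom 4.48), with Benjamini-Hochberg adjustment at 0.05. SE are from limma and intervals cover 95%. Replicates are embryos. The members and lists were chosen with earlier results of these data known, and gene lists were described by counts and medians. Named genes were the members, the 3 genes of smallest p for genotype and 2 for somite number per list, the nearest measured gene on each side of Hscb and Bola1, and the 5 genes most like each. Among the genes most like each, predicted genes were passed over. Alternatives covered scaling, a filter on dim genes, the probe rule, array weights, a trend in eBayes, covariates, the somite midpoint, a replicate block and arrays left out. On data simulated from these genes, 5.6% of genotype differences of 0.5 on the log2 scale, 75.6% of 1 and 99.6% of 2 were recovered over 19938 genes. The simulated noise was normal and independent between genes, and each run held many true changes, which eases the adjusted threshold. Recovery of a few changes in the real data may therefore be lower.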

Additional observations from a re-analysis of the deposited data

Results flagged for a closer look

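Embryos that stood apart from the 3 others of their group were sought in 51 named genes, or 102 groups, by the gap to the nearest value relative to the range of the group; chance marks about 1 group in 20, and 7 were found. Among the members, Nfu1 was at 8.80 in WT 4, against 8.36 to 8.37 in the other WT embryos, and at 8.96 in mutant 1, against 8.13 to 8.27. Chek2 was at 8.82 in mutant 3, against 8.16 to 8.22. H2bc21 was at 6.51 in WT 3, against 5.02 to 5.21. Kif4 was at 7.83 in mutant 2, against 7.12 to 7.18. Mrps10 was at 6.68 in WT 2, against 6.90 to 6.93, and Ror2 at 7.38 in WT 2, against 7.76 to 7.83.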

How the results depend on the processing

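Over 17 alternatives for the genotype contrast, the difference of Hscb ran from 0.63 to 0.80 and that of Bola1 from -0.68 to -0.52. Both were chosen for this contrast and their groups do not overlap, so leaving out an array cannot turn their signs. The filter on dim genes, the mean of probes and the eBayes trend cannot move their differences. Nothing is read from their kept signs. In these alternatives 0 genes passed over all genes or in the lists. The sign of Iscu, Nfs1, Glrx5, Isca1 and Nfu1 turned in at least 1 alternative. The number of genes at an unadjusted p under 0.05 was 934 (4.68%), and 1715 without WT 1. Among the 9969 genes of above-median mean it was 538 (5.4%), with 404 higher and 134 lower in place of 543 and 391; in the lists it was 5, and 8 without WT 1 or with somite number as covariate. For somite number, 0 genes passed, from 0 to 2 when any 1 array was left out, 5 without WT 3 and mutant 4 together and 1 with the upper end of the somite ranges; 1942 had an unadjusted p under 0.05, and 1046 (10.5%) among genes of above-median mean, with 800 positive and 246 negative in place of 1000 and 942. Of the member slopes, 4 were above 0, and 2 after quantile normalization, 7 after median centring and 2 with the upper end of the ranges; the cause was not tested. With the replicate number as a block, 2 member slopes were above 0 and 675 genes had an unadjusted limma slope p under 0.05. With that block 70 genes passed the interaction test, in a fit with 1 residual degree of freedom per gene. Each number occurs in both genotypes, so the block cannot move a difference between genotypes. Those of Hscb and Bola1 are therefore 0.72 and -0.60 by construction. The labels number the embryos within each genotype and name no pairing. Deviations from the group means correlated from -0.19 to 0.10 between embryos of the same number and from -0.27 to 0.25 between others. With 4 same-number pairs these correlations cannot tell whether a number marks a shared litter or batch. The interaction had 902 genes at an unadjusted p under 0.05, and 546 (5.48%) among genes of above-median mean. No scanner values were used, so signal over background is unknown.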
